A study of Mus musculus with 12 samples.

Results

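The genes described here encode proteins of the excitatory postsynaptic density: the PSD-95 family, SHANK, HOMER and SAPAP scaffolds, the subunits of the kinase CaMKII, neurogranin, calcineurin, regulators of spine actin and small GTPases, and adaptors of AMPA receptors. Members were chosen by name, with earlier results of these data known. A probe set belonged to the group when its gene symbol was exactly one of 34 listed symbols, and all 34 genes were measured, by 39 probe sets. For the 4 genes with more than 1 probe set (Shank2, Homer2, Dlgap1 and Tanc2), the probe set with the highest mean over the 12 arrays was used. The arrays carried 28192 probe sets and gave 19937 genes a probe set of their own.

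The postsynaptic density is the protein layer beneath the membrane of an excitatory synapse, facing the site of glutamate release. PSD-95 and its relatives hold glutamate receptors at the membrane, SAPAP proteins link them to SHANK, and SHANK binds HOMER, which reaches the metabotropic receptors and calcium stores. Calcium that enters through NMDA receptors acts by way of calmodulin on CaMKII, which strengthens the synapse, and on the phosphatase calcineurin, which weakens it, while GTPase regulators shape the actin of the spine. Pyramidal cells carry most of their excitatory synapses on spines, whereas many cortical interneurons receive them directly on smooth dendrites, so the same proteins serve synapses of different form.

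RNA came from GFP-labelled cells that had been sorted by FACS from papain-dissociated cortex of C57BL6 mice, and all 4 groups carried the Cre-dependent reporter RCE:LoxP. Pyramidal cells (Pyr) came from NexCre;RCE:LoxP somatosensory cortices at postnatal day 0 (Pyr P0) and day 12 (Pyr P12). Interneurons (IN) came from Nkx2-1Cre;RCE:LoxP cortices at day 0 (IN P0) and day 10 (IN P10). Each group had 3 arrays, labelled biological replicates A, B and C; the number of arrays limits the precision. Nex-Cre acts in young excitatory neurons and Nkx2-1-Cre in progenitors of the medial ganglionic eminence, which give rise to interneurons and to some oligodendrocyte precursors. By the labels, both comparisons of IN with Pyr join population with the dissected area, and the comparison of IN P10 with Pyr P12 joins them with 2 days of age, which cannot be told apart. The change with age likewise spans 10 days in IN and 12 in Pyr, so the difference between the changes joins population with these 2 days. In sorted bulk samples, fewer cells with a transcript and less RNA per cell cannot be told apart.

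Levels are log2 values as deposited, on which a step of 1 is a doubling, and levels of different genes are not compared with each other, since each probe set has its own brightness. Array values ran from 4.74 to 14.73. Background was taken from 1208 probe sets of olfactory and vomeronasal receptors, and its 95th percentile was 7.13 to 7.45 by array. All 7 general interneuron markers were called higher in IN than in Pyr at both stages, and 8 of 11 pyramidal markers were called lower. By adjusted p, 9 of the 11 were lower and 2 higher at P0, and 10 lower and 1 higher at the later stages. Bcl11b was higher in IN at both stages (0.61 and 0.94) and Cux2 at P0 (0.71). Both genes stay in the means and counts of the pyramidal list below. In IN P0 the mean of the pyramidal list was 9.20, 9.63 and 9.22 on arrays A, B and C, against 8.15 to 8.17 in IN P10, and in Pyr P0 the mean of the interneuron list was 8.73 to 9.21 against 7.68 to 7.81 in Pyr P12. All 7 markers of oligodendrocyte precursors were higher in IN at both stages, with list means of 9.98 to 10.23 in IN P0 and 9.84 to 10.56 in IN P10 against 7.62 to 7.96 in Pyr P0 and 7.66 to 7.82 in Pyr P12. The 8 markers of myelinating oligodendrocytes had list means of 8.97 to 9.33 in IN P10 and 7.96 to 8.03 in IN P0, against 7.51 to 7.61 in Pyr P0 and 7.76 to 7.85 in Pyr P12. No marker of astrocytes, microglia, endothelial or mural cells was called between IN and Pyr at either stage. The part of these markers in the results below was not tested.

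Start-site windows are printed for 4 members that mark the results: Camk2d, with the largest change with age, Nrgn, which changed with age and between populations, Baiap2, with the largest difference between populations, and Homer3, which fell in Pyr. The windows are RefSeq sequence of build GRCm38.p6, from 250 bases before to 50 bases after the annotated start, read 5′ to 3′ on the strand of the gene. Capitals mark matches on either strand to GGGCGG, the GC box, and to TATAAA, the TATA box.
Camk2d, chr3:126596701-126597000, plus strand: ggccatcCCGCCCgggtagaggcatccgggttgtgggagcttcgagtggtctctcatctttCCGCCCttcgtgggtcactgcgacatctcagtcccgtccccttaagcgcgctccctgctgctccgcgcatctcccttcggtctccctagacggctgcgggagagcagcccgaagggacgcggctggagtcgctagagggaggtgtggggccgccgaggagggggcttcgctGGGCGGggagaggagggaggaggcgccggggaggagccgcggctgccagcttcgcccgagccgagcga
Nrgn, chr9:37552696-37552995, minus strand: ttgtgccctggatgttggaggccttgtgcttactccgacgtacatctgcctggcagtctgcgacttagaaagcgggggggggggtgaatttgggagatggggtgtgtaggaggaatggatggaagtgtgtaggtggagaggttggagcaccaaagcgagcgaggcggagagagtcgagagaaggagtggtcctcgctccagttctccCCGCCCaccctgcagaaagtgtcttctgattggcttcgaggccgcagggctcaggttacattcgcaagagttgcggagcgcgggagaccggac
Baiap2, chr11:119942842-119943141, plus strand: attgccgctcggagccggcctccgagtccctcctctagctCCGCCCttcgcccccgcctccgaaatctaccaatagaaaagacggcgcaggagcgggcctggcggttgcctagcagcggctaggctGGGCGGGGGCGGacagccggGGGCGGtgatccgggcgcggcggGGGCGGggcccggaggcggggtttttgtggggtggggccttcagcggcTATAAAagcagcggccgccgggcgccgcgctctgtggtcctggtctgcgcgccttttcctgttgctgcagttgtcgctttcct
Homer3, chr8:70282749-70283048, plus strand: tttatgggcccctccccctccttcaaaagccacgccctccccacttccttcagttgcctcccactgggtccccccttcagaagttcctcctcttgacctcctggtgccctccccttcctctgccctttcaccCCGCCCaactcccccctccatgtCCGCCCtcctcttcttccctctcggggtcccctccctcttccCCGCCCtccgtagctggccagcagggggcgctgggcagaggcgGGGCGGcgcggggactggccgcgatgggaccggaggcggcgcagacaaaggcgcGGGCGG
Camk2d held 3 GC-box matches, Nrgn 1, and Baiap2 and Homer3 held 5 each, and of the 4 windows that of Baiap2 held a TATAAA match. RefSeq windows were at hand for 27 of the 34 members, 50 windows in all. The GC-box letters were in 58.0% of these windows against 35.7% of 32851 windows of all genes, TATAAA in 12.0% against 13.6%, CACGTG in 12.0% against 7.2%, and TGACGT in 4.0% against 7.5%. The windows of Homer1 and Ppp3r1 were those that held TGACGT. These are matches of letters and not measured binding.

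The members were detected in the sorted cells of both populations from birth. Every member was above background on all arrays of every group, except Camk2d in Pyr P0. There, 2 of 3 arrays were above it. On all arrays of IN P0, 9 of 11 pyramidal markers were above background too, and on those of Pyr P0 all 7 interneuron markers. A value above background is therefore not proof of expression in that population, and the part of other cells was not tested. The mean level over the 34 members was 10.77 to 10.90 in Pyr P0, 11.55 to 11.60 in Pyr P12, 10.75 to 10.78 in IN P0 and 10.91 to 10.97 in IN P10, so that the Pyr P12 arrays stood apart from the other 9. Pyr P12 had the highest mean for 25 of 34 members, against 43.7% of all 22961 probe sets tested. IN P0 was highest for 4 members (Dlgap1, Dlgap2, Tanc1 and Grip1), Pyr P0 for 3 (Homer3, Ppp1r9b and Lzts1) and IN P10 for 2 (Camk2d and Pick1). Of all probe sets tested, IN P0 was highest for 19.9%, Pyr P0 for 18.1% and IN P10 for 18.2%, larger shares than among the members. The SD between the 3 arrays of a group was small, with a median over members of 0.06 in Pyr P12 and 0.09 in Pyr P0, and reached 0.29 (Nrgn in IN P0) at most.

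**Figure D1:**
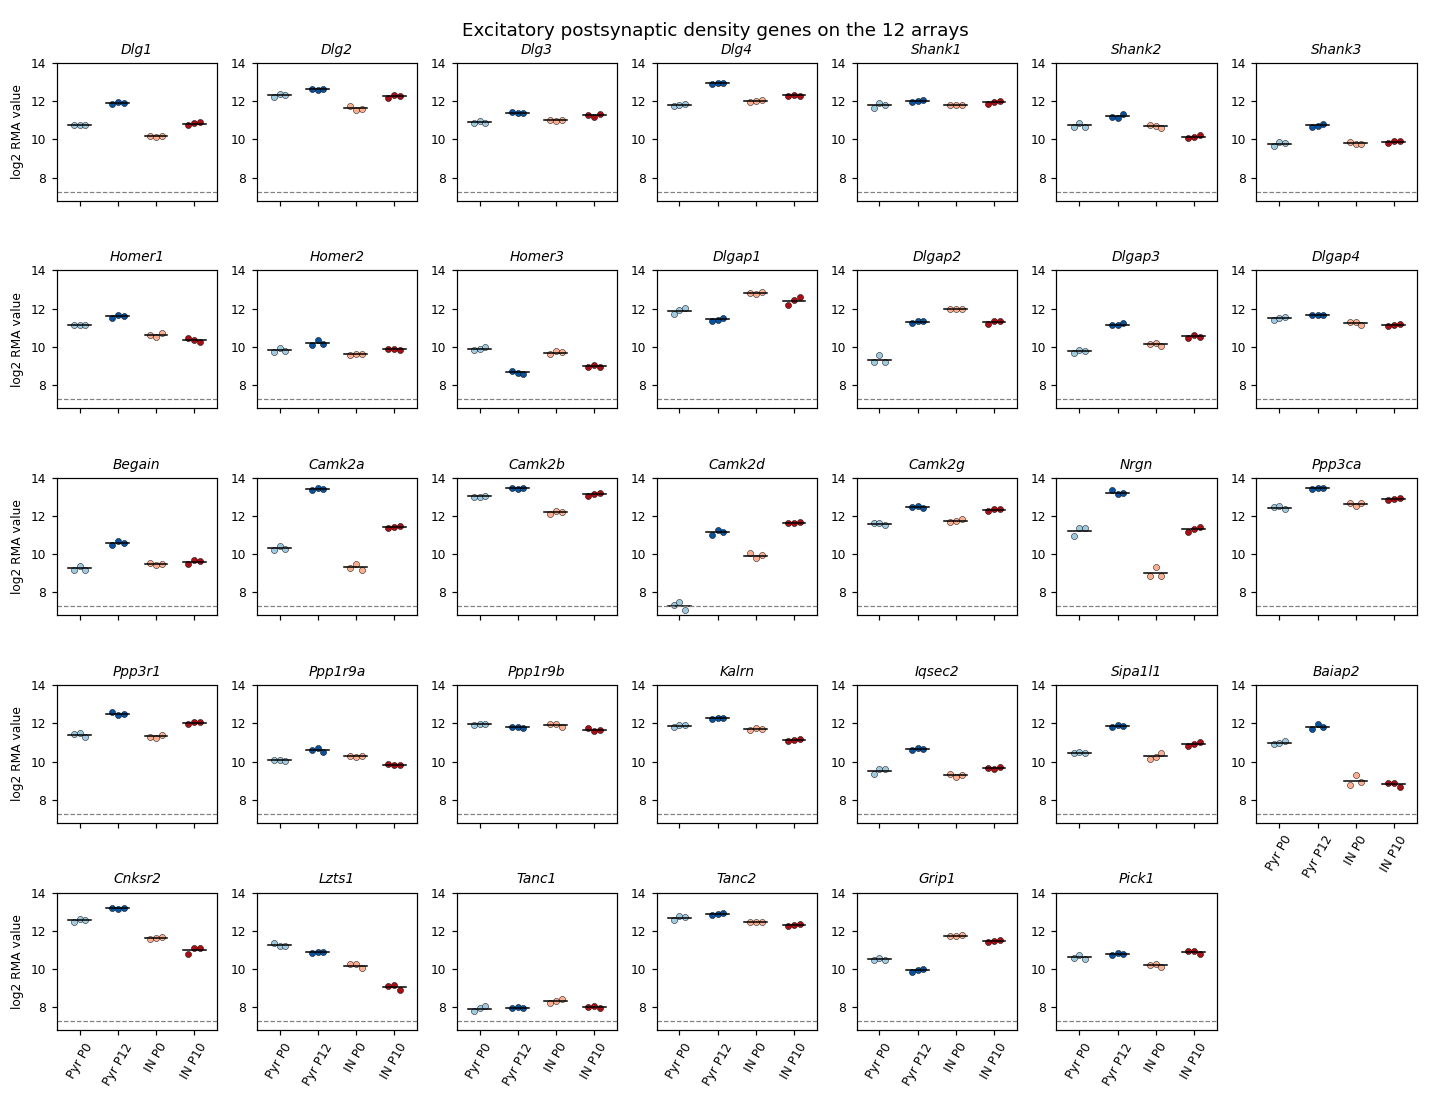
Deposited log2 value of each of the 34 members (1 panel a gene, y axis) on the 3 arrays of each group (points), with the group mean as a bar and a dashed line at the background averaged over arrays. Most members were highest in Pyr P12, whereas Dlgap1, Dlgap2, Tanc1 and Grip1 were highest in IN P0.

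With age, more of the density genes increased in pyramidal cells than in interneurons. A gene was called changed when limma's Benjamini-Hochberg adjusted p was under 0.05 and the fold change was over 2. In Pyr P12 against Pyr P0, 12 members were called higher (Dlg1, Dlg4, Dlgap2, Dlgap3, Begain, Camk2a, Camk2d, Nrgn, Ppp3ca, Ppp3r1, Iqsec2 and Sipa1l1) and 1 lower (Homer3). Of all probe sets tested, 5.68% were called higher and 3.48% lower, and among the 16140 above background in at least 1 group 7.98% were called higher. In IN P10 against IN P0, 3 members were called higher (Camk2a, Camk2d and Nrgn) and 1 lower (Lzts1), against 4.19% and 2.85% of all probe sets, so that the interneuron counts lay closer to this background. Without the fold limit, 27 members (79.4%) passed the adjusted p upwards and 5 (14.7%) downwards in Pyr, against 33% and 21.7% of all probe sets. In IN, 16 (47.1%) passed upwards and 13 (38.2%) downwards, against 22.3% and 23.1%. Among the probe sets above background, 35.4% passed upwards and 29.4% downwards in Pyr, and 30% and 31.3% in IN. The share of members that fell in IN thus lay near that background. The median change of the members was 0.52 in Pyr and 0.12 in IN, against 0.06 and 0.00 over all probe sets.

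The age change itself differed between the populations for many members. The test of this difference, the change in IN minus the change in Pyr, called 6 members below 0 (Shank2, Dlgap2, Begain, Camk2d, Baiap2 and Cnksr2) and 0 above, against 2.63% and 2.24% of all probe sets. Without the fold limit, 24 members passed below 0 and 5 above, against 20.3% and 11.8%, and among the probe sets above background 24.9% passed below 0. The 5 above were Dlg2, Homer3, Camk2b, Grip1 and Pick1. The median difference of the members was -0.59, against -0.07 over all probe sets. With 3 arrays a group, an exact permutation test of a single gene cannot go below p = 0.1, so the p-values are those of the fit across all probe sets.

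Sorted by adjusted p in both populations, 15 members rose in both, 44.1% against 16.5% of all probe sets. Among them, Homer2 rose in IN by its brighter probe set alone. There were 5 that fell in both (Homer3, Dlgap1, Ppp1r9b, Lzts1 and Grip1). These were 14.7% of the members against 15% of all probe sets, so their share was that of the background. The fall of Dlgap1 rests on its brighter probe set. A set of 7 rose in Pyr and fell in IN: Shank2, Homer1, Dlgap2, Ppp1r9a, Kalrn, Cnksr2 and Tanc2. All 7 passed the test of the difference between the changes, but they were picked for opposite changes in the same fit. That pass adds no separate evidence. The 7 were 20.6% of the members, against 1.99% of all probe sets and 2.71% of those above background, and 0 members did the opposite. The pyramidal marker list fell with age in IN as well, 9 of its 11 genes by adjusted p and its mean from 9.20 to 9.63 in IN P0 to 8.15 to 8.17 in IN P10, and its part in the fall of these 7 members was not tested. Bcl11b and Cux2, which were higher in IN than in Pyr at P0, were among the 9. Of the 7, Tanc2 lay nearest the threshold, with an adjusted p of 0.0449 in IN. Another 5 members rose in Pyr and did not pass in IN (Shank1, Shank3, Dlgap4, Begain and Baiap2), Pick1 rose and Tanc1 fell in IN alone by this count, and the difference between the populations passed for Shank3, Dlgap4, Begain, Baiap2, Pick1 and Tanc1 but not for Shank1.

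**Figure D2:**
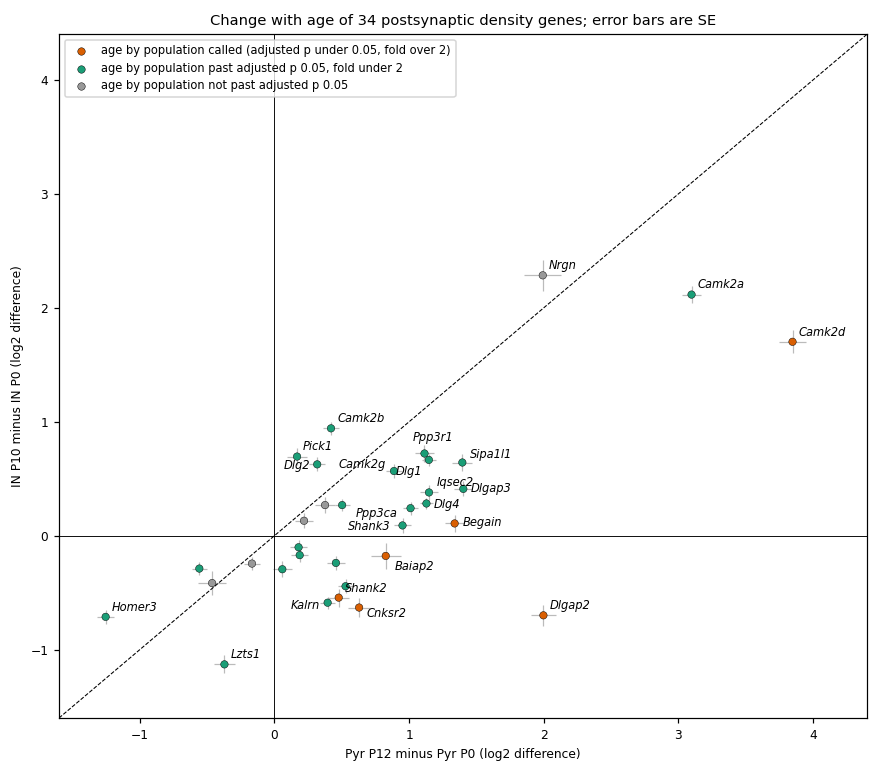
Change of each member from IN P0 to IN P10 (y axis, log2 difference) against its change from Pyr P0 to Pyr P12 (x axis, log2 difference); error bars are SE, the dashed line marks equal change, and colours give the test of the difference between the changes. Camk2d, Camk2a and Nrgn rose in both populations, and Dlgap2 rose by 2.0 in Pyr and fell by 0.70 in IN.

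Among the PSD-95 family scaffolds, all 4 members rose with age in both populations by adjusted p. Dlg4, which encodes PSD-95, read 11.76, 11.81 and 11.88 in Pyr P0 and 12.92, 12.95 and 12.97 in Pyr P12. The IN arrays read 11.98, 12.02 and 12.06 in IN P0 and 12.28, 12.33 and 12.30 in IN P10. The groups did not overlap at either step, and the lowest array of Pyr P12 stood above every array of the other 3 groups. The rise was 1.13 (SE 0.05, adjusted p = 3.14e-10) in Pyr and 0.28 (SE 0.05, adjusted p = 0.000257) in IN. The change in IN minus that in Pyr was -0.85 (95% interval -1.0 to -0.70, adjusted p = 8.32e-07). At P0 Dlg4 was higher in IN than in Pyr by 0.20 (adjusted p = 0.00762), and at the later stages the difference was -0.64 (adjusted p = 1.57e-07), so the order of the populations turned.

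Dlg1, a relative of PSD-95 that also traffics AMPA receptors, was lowest in IN P0, where it read 10.18, 10.14 and 10.17. Its arrays read 10.76, 10.76 and 10.75 in Pyr P0, 11.88, 11.94 and 11.89 in Pyr P12, and 10.73, 10.85 and 10.91 in IN P10. IN P10 therefore overlapped Pyr P0, and Pyr P12 stood alone. Dlg1 rose 2.21-fold in Pyr (adjusted p = 5.37e-10) and 1.59-fold in IN (adjusted p = 1.63e-07), and IN P10 was 2.1-fold below Pyr P12 (adjusted p = 1.82e-09). Dlg2, another scaffold of NMDA receptors, went the other way in the comparison of changes: it rose by 0.32 in Pyr and 0.63 in IN, and the difference of 0.31 passed the test (SE 0.09, adjusted p = 0.015). Dlg3 rose by 0.50 in Pyr and 0.27 in IN, and its difference between IN and Pyr did not pass at P0 (adjusted p = 0.261) or at the later stages (adjusted p = 0.0637).

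The SHANK scaffolds, which form the deeper layer of the density, did not differ detectably between the populations at P0. Their P0 differences between IN and Pyr lay between -0.05 and 0.02, and the widest of the 3 intervals, that of Shank2, ran from -0.22 to 0.12. In IN P10 against Pyr P12, Shank2 and Shank3 were lower by adjusted p, whereas Shank1 differed by -0.07 (95% interval -0.22 to 0.07, adjusted p = 0.394) and its arrays overlapped. Shank2 read 10.66, 10.88 and 10.67 in Pyr P0 and 11.17, 11.14 and 11.33 in Pyr P12, but 10.77, 10.68 and 10.59 in IN P0 and 10.06, 10.13 and 10.23 in IN P10. It rose by 0.48 in Pyr (adjusted p = 0.000152) and fell by 0.54 in IN (adjusted p = 5.28e-05), and IN P10 ended 2.1-fold below Pyr P12 (adjusted p = 1.03e-07). The difference between the changes was -1.02 (SE 0.11, adjusted p = 1.11e-05), and it went under the 2-fold limit when any of 5 single arrays was left out, with values from -1.09 to -0.96 over all 12 omissions. The other Shank2 probe sets, with group means of 8.11 to 8.86, passed in no comparison, and with the mean of all Shank2 probe sets the difference was -0.30.

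Shank3 read 9.67, 9.87 and 9.81 in Pyr P0 and 10.67, 10.71 and 10.83 in Pyr P12. The IN arrays read 9.84, 9.77 and 9.78 in IN P0 and 9.84, 9.90 and 9.93 in IN P10, groups that met at 9.84. The rise was 0.95 in Pyr (adjusted p = 2.01e-08) and 0.09 in IN (95% interval -0.05 to 0.23, adjusted p = 0.294), and the changes differed by -0.86 (SE 0.09, adjusted p = 6.79e-06). Shank1 rose by 0.22 in Pyr (adjusted p = 0.0133), and its difference between the changes did not pass (adjusted p = 0.522, 95% interval -0.29 to 0.12).

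Of the HOMER adaptors, which join SHANK to metabotropic glutamate receptors and calcium stores, each had its own course. Homer1 rose by 0.46 in Pyr (adjusted p = 3.99e-05) and fell by 0.24 in IN (adjusted p = 0.00745). It read 11.53, 11.67 and 11.62 in Pyr P12 and 10.48, 10.38 and 10.28 in IN P10, without overlap, a 2.34-fold lower level in IN (adjusted p = 3.8e-09). Homer2 rose in both populations by its brighter probe set, by 0.38 in Pyr and 0.27 in IN, and the changes did not differ by the test (adjusted p = 0.462, 95% interval -0.33 to 0.11). The dimmer probe set rose by 0.51 in Pyr (adjusted p = 0.000314) and changed by 0.17 in IN (adjusted p = 0.16). Its changes differed by -0.34, which did not pass (adjusted p = 0.0623).

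Homer3, whose window is printed above, was the one member called lower with age in Pyr. It read 9.86, 9.90 and 9.98 in Pyr P0 and 8.73, 8.65 and 8.59 in Pyr P12. In interneurons it read 9.60, 9.77 and 9.71 in IN P0 and 8.96, 9.06 and 8.94 in IN P10. Both steps went down without overlap, by 1.25 in Pyr (SE 0.06, adjusted p = 1.05e-09) and 0.71 in IN (SE 0.06, adjusted p = 3.85e-07). Pyr P12 was the lowest group, 0.33 below IN P10 (adjusted p = 0.000698), in contrast to Homer1, which was highest there.

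The SAPAP linkers (Dlgap genes) and Begain bind the guanylate kinase domain of PSD-95 proteins. Dlgap2 showed the largest difference between the age changes of any member. It read 9.18, 9.58 and 9.20 in Pyr P0 and 11.25, 11.37 and 11.34 in Pyr P12, against 12.00, 12.00 and 11.97 in IN P0 and 11.20, 11.34 and 11.34 in IN P10. At P0 the IN arrays stood far above the Pyr arrays, and at the later stages the groups overlapped. At P0 the level in IN was 6.35-fold that in Pyr (log2 difference 2.67, SE 0.09, adjusted p = 1.51e-10). It then rose 3.99-fold in Pyr (adjusted p = 4.66e-10) and fell 1.62-fold in IN (adjusted p = 1.83e-05), and IN P10 against Pyr P12 gave -0.03 (95% interval -0.22 to 0.17, adjusted p = 0.814). The difference between the changes was -2.70 (SE 0.13, adjusted p = 6.93e-09).

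Begain read 9.20, 9.39 and 9.19 in Pyr P0 and 10.50, 10.70 and 10.59 in Pyr P12, against 9.54, 9.46 and 9.50 in IN P0 and 9.49, 9.68 and 9.65 in IN P10. The Pyr groups were apart by more than 1 log2 step and the IN groups overlapped. The rise in Pyr was 2.53-fold (adjusted p = 3.07e-09), the change in IN was 0.11 (adjusted p = 0.279), and the changes differed by -1.23 (SE 0.10, adjusted p = 1.02e-06). Dlgap3 rose 2.64-fold in Pyr (adjusted p = 6.64e-10) and 1.33-fold in IN (adjusted p = 0.000124). Dlgap4 changed by 0.18 in Pyr (adjusted p = 0.0235) and -0.10 in IN (adjusted p = 0.216).

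Dlgap1 was higher in IN at both stages, by 0.92 at P0 (adjusted p = 1.1e-05) and 0.97 later (adjusted p = 3.94e-06). Its course with age depended on the probe set. In Pyr the brighter one fell by 0.46 (adjusted p = 0.00169), and the other rose by 0.59 (adjusted p = 6.53e-07). In IN the brighter one fell by 0.42 (adjusted p = 0.00392), and the other changed by -0.09 (adjusted p = 0.223). The changes differed by 0.05 (adjusted p = 0.839) for the brighter one and by -0.68 (adjusted p = 1.68e-05) for the other. The dimmer probe set was also higher in IN than in Pyr, by 1.12 at P0 and 0.45 at the later stages.

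The CaMKII subunits rose with age in both populations, all 4 by adjusted p. Camk2a, the alpha subunit and a major protein of mature forebrain synapses, read 10.24, 10.43 and 10.28 in Pyr P0 and 13.37, 13.45 and 13.42 in Pyr P12. In interneurons it read 9.30, 9.47 and 9.20 in IN P0 and 11.39, 11.44 and 11.49 in IN P10. No groups overlapped, and the order was Pyr P12, IN P10, Pyr P0, IN P0. Array B, the highest of IN P0 for Camk2a, also had the highest pyramidal marker mean there, 9.63, whose part was not tested. Camk2a rose 8.56-fold in Pyr (log2 difference 3.10, SE 0.07, adjusted p = 1.4e-12) and 4.34-fold in IN (log2 difference 2.12, SE 0.07, adjusted p = 7.53e-11). The IN level was 3.93-fold lower at the later stages (adjusted p = 1.04e-10) and 1.99-fold lower at P0 (adjusted p = 1.59e-07), the latter just under the fold limit. The changes differed by -0.98 (adjusted p = 7.15e-06), also just under it.

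Camk2d, the delta subunit, had the opposite order of populations. It read 7.35, 7.49 and 7.07 in Pyr P0, near background, and 11.02, 11.24 and 11.18 in Pyr P12. The IN arrays read 10.06, 9.78 and 9.96 in IN P0 and 11.62, 11.61 and 11.66 in IN P10. The increase in Pyr was the largest of any member, 14.4-fold (log2 difference 3.85, SE 0.10, adjusted p = 3.38e-12), from a group in which 2 of 3 arrays were above background. In IN it rose 3.25-fold (adjusted p = 9.93e-09). Camk2d was 6.19-fold higher in IN than in Pyr at P0 (adjusted p = 3.71e-10) and 1.4-fold higher at the later stages (adjusted p = 0.00136), so the gap narrowed, with a difference between the changes of -2.15 (SE 0.14, adjusted p = 1.19e-07).

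Camk2b, the beta subunit, which binds actin, rose more in IN than in Pyr. It read 12.11, 12.29 and 12.22 in IN P0 and 13.06, 13.16 and 13.22 in IN P10, a change of 0.94, against a change of 0.42 in Pyr. The changes differed by 0.52 (SE 0.08, adjusted p = 0.000289), and IN minus Pyr was -0.29 at the later stages (adjusted p = 0.001). Camk2g, the gamma subunit, rose 1.85-fold in Pyr (adjusted p = 1.61e-08) and 1.48-fold in IN (adjusted p = 1.75e-06), with a difference between the changes of -0.32 (adjusted p = 0.00819).

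Neurogranin, encoded by Nrgn, binds calmodulin when calcium is low and releases it when calcium enters. Nrgn read 10.98, 11.35 and 11.38 in Pyr P0 and 13.34, 13.13 and 13.22 in Pyr P12. In interneurons it read 8.85, 9.35 and 8.84 in IN P0 and 11.16, 11.33 and 11.40 in IN P10. The arrays of IN P10 overlapped those of Pyr P0, and those of IN P0 were the lowest. Its rise was 3.98-fold in Pyr (adjusted p = 2.82e-08) and 4.88-fold in IN (adjusted p = 1.11e-08), and the changes did not differ by the test (0.29, 95% interval -0.12 to 0.71, adjusted p = 0.28). Nrgn was 4.67-fold lower in IN than in Pyr at P0 (adjusted p = 2.83e-08) and 3.82-fold lower at the later stages (adjusted p = 6.79e-08). Within IN P0, array B was highest for Nrgn and also had the highest mean of the pyramidal marker list, 9.63, whose part in the value was not tested. Without that array, the Nrgn difference at P0 was -2.39 and the rise in IN 2.45.

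Calcineurin, the calcium-dependent phosphatase that opposes CaMKII, is made of a catalytic and a regulatory subunit. Ppp3ca, a catalytic subunit gene, read 12.45, 12.52 and 12.37 in Pyr P0 and 13.43, 13.48 and 13.46 in Pyr P12, a 2.02-fold rise (adjusted p = 5.32e-09) at the edge of the fold limit, and the call was lost without Pyr P0 array C (0.97) or Pyr P12 array B (1.0). In IN it rose by 0.24 (adjusted p = 0.00335), and the changes differed by -0.77 (adjusted p = 9.46e-06). Ppp3r1, the regulatory subunit gene, rose 2.17-fold in Pyr (adjusted p = 1.5e-08) and 1.65-fold in IN (adjusted p = 1.43e-06).

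The regulators of spine actin and small GTPases were the role with the most members. Of 10, 8 passed downwards in IN P10 against Pyr P12, next to 70.6% of all 34 members and 30.4% of all probe sets, and 5 were called (Kalrn, Iqsec2, Baiap2, Cnksr2 and Lzts1), next to 2.91% of all probe sets. In the difference between the changes 9 of 10 passed below 0, next to 70.6% of the members and 20.3% of all probe sets. Baiap2, which encodes IRSp53, an adaptor that bends membranes and links Rac and Cdc42 to actin, read 10.94, 10.99 and 11.07 in Pyr P0 and 11.72, 11.95 and 11.81 in Pyr P12. In interneurons it read 8.76, 9.29 and 8.91 in IN P0 and 8.91, 8.86 and 8.67 in IN P10. Both Pyr groups were above both IN groups, and the IN groups overlapped. Baiap2 was 4.03-fold lower in IN at P0 (log2 difference -2.01, SE 0.11, adjusted p = 1.22e-08) and 8.09-fold lower at the later stages (log2 difference -3.02, SE 0.11, adjusted p = 1.31e-10). It rose 1.77-fold in Pyr (adjusted p = 2.78e-05) and changed by -0.18 in IN (adjusted p = 0.246). The changes differed by -1.0 (SE 0.16, adjusted p = 0.000298). This value moved to -0.85 without IN P0 array B and fell under the fold limit in 5 of 12 omissions. Array B, the highest of IN P0 for Baiap2, also had the highest mean of the pyramidal marker list there, 9.63. The part of those markers in the Baiap2 values was not tested.

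Cnksr2, a scaffold that joins Ras and Rac signalling to the density, read 12.45, 12.60 and 12.59 in Pyr P0 and 13.20, 13.15 and 13.18 in Pyr P12. The IN arrays read 11.59, 11.63 and 11.68 in IN P0 and 10.79, 11.11 and 11.11 in IN P10. The 4 groups did not overlap. Cnksr2 rose by 0.63 in Pyr (adjusted p = 1.32e-05) and fell by 0.63 in IN (adjusted p = 1.43e-05), so that a 1.88-fold lower level in IN at P0 (adjusted p = 1e-06) became a 4.5-fold lower level (adjusted p = 1.05e-10). Kalrn, a Rac exchange factor that enlarges spines, rose by 0.40 in Pyr (adjusted p = 2.84e-05) and fell by 0.59 in IN (adjusted p = 7.12e-07). It read 12.21, 12.28 and 12.30 in Pyr P12 and 11.05, 11.13 and 11.16 in IN P10.

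Lzts1, which encodes a leucine zipper protein of the density, was the one member called lower with age in IN. It read 10.24, 10.26 and 10.04 in IN P0 and 9.12, 9.14 and 8.89 in IN P10, a 2.19-fold fall (adjusted p = 5.5e-08). In pyramidal cells it read 11.35, 11.21 and 11.18 in Pyr P0 and 10.81, 10.91 and 10.91 in Pyr P12, a fall of 1.29-fold (adjusted p = 0.00133). All arrays of Pyr were above all arrays of IN, with 2.1-fold lower levels in IN at P0 (adjusted p = 2.1e-07) and 3.54-fold lower levels later (adjusted p = 5.74e-10). Of 11 pyramidal markers, 9 also passed downwards with age in IN, and their part in the fall of Lzts1 was not tested. The P0 difference was -1.0 without IN P0 array C, just under the fold limit.

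Iqsec2, an exchange factor for Arf6 near NMDA receptors, rose 2.22-fold in Pyr (adjusted p = 6.32e-09) and 1.3-fold in IN (adjusted p = 0.000308), and IN P10 was 2.01-fold below Pyr P12 (adjusted p = 4.09e-08), which lost the call in 3 of 12 omissions (-0.99 to -1.03 over all 12). Sipa1l1, a Rap GTPase-activating protein that shapes spines, rose 2.63-fold in Pyr (adjusted p = 2.54e-09) and 1.56-fold in IN (adjusted p = 6.74e-06). Ppp1r9a, which encodes the actin-binding protein neurabin, rose by 0.53 in Pyr (adjusted p = 4.53e-06) and fell by 0.44 in IN (adjusted p = 2.7e-05). Its relative Ppp1r9b, which encodes spinophilin, fell slightly in both, by 0.17 in Pyr (adjusted p = 0.0265) and 0.24 in IN (adjusted p = 0.00304), and the changes did not differ by the test (adjusted p = 0.517). The scaffold genes Tanc1 and Tanc2 had small changes, with Tanc1 at 7.78 to 8.41 over the 12 arrays.

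The AMPA receptor adaptors bind the tails of AMPA receptor subunits through PDZ domains. Grip1 was the one member called higher in IN at both stages. It read 11.75, 11.73 and 11.78 in IN P0 and 11.39, 11.46 and 11.54 in IN P10, against 10.47, 10.56 and 10.48 in Pyr P0 and 9.85, 9.96 and 10.01 in Pyr P12. All arrays of IN were above all arrays of Pyr, by 2.38-fold at P0 (adjusted p = 1.72e-09) and 2.87-fold later (adjusted p = 1.29e-10). Grip1 fell in both populations, by 0.56 in Pyr and 0.29 in IN, and the changes differed by 0.27 (adjusted p = 0.0205). The interneuron marker list was also lower in Pyr P12, with means of 7.68 to 7.81 against 8.73 to 9.21 in Pyr P0. Its part in the fall of Grip1 in Pyr was not tested. Pick1, which draws AMPA receptors inside the cell, rose by 0.69 in IN (adjusted p = 2e-06) and changed by 0.17 in Pyr (adjusted p = 0.0611), and the changes differed by 0.53 (SE 0.10, adjusted p = 0.00124).

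Between the populations at P0, members were spread over both directions. In IN P0 against Pyr P0, 3 members were called higher (Dlgap2, Camk2d and Grip1) and 3 lower (Nrgn, Baiap2 and Lzts1), against 1.9% and 1.74% of all probe sets. By adjusted p alone, 10 were higher and 16 lower, against 11.1% and 11.3%, with a median of -0.12. At the later stages the direction was mostly one way. In IN P10 against Pyr P12, 1 member was called higher (Grip1) and 10 lower (Dlg1, Shank2, Homer1, Camk2a, Nrgn, Kalrn, Iqsec2, Baiap2, Cnksr2 and Lzts1), against 2.65% and 2.91% of all probe sets and, among those above background, 3.72% and 4.05%. By adjusted p alone, 4 were higher (Homer3, Dlgap1, Camk2d and Grip1) and 24 lower, against 16.1% and 30.4%, and the median was -0.58 against -0.07 over all probe sets. The 7 markers of oligodendrocyte precursors were higher in IN at both stages, as Dlgap1, Camk2d and Grip1 were, and the part of such cells was not tested. The comparisons of IN with Pyr and of age share the same 12 arrays, so their values are set side by side and are not independent.

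**Figure D3:**
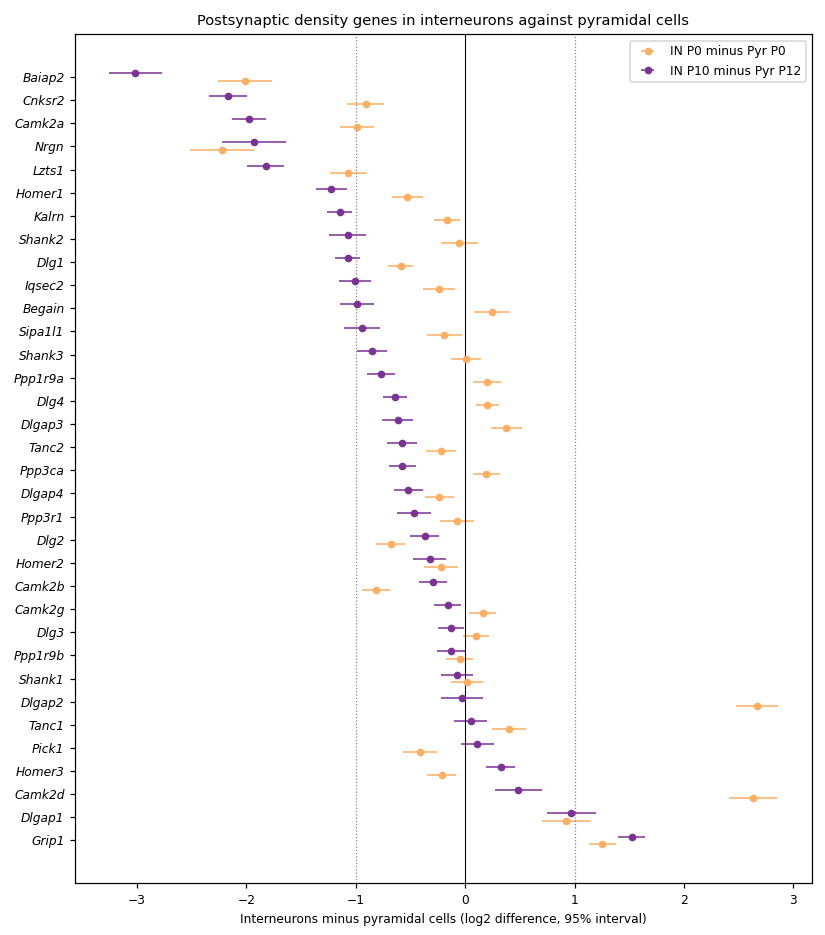
Difference between IN and Pyr for each member (x axis, log2 IN minus Pyr) at P0 and at the later stages (IN P10 minus Pyr P12), with lines for the 95% intervals of the limma fit. Baiap2 lay at -2.01 and -3.02, Dlgap2 moved from 2.67 to -0.03, and Grip1 stayed above 0 at 1.25 and 1.52.

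Among 14 measured genes of the calmodulin, CaMKII and calcineurin pathway outside the members, 13 rose in Pyr and 14 in IN by adjusted p. Called higher were 6 in Pyr and 3 in IN, and 0 genes fell by adjusted p. Over all probe sets, 33% rose and 21.7% fell in Pyr, and 22.3% rose and 23.1% fell in IN. The shares called higher were 5.68% in Pyr and 4.19% in IN. Camk2n1, an inhibitor of CaMKII, rose by 2.56 in Pyr (adjusted p = 7.6e-12) and 0.75 in IN (adjusted p = 1.4e-06), with a difference between the changes of -1.80 (adjusted p = 3.7e-08). Rcan2, an inhibitor of calcineurin, rose by 2.75 in Pyr (adjusted p = 8.8e-13) and 1.43 in IN (adjusted p = 5.4e-10), and like Camk2d it was higher in IN at P0, by 2.31 (adjusted p = 2.6e-11). Pcp4, a calmodulin-binding protein of the same family as neurogranin, rose by 1.54 in Pyr (adjusted p = 1.4e-08) and 1.99 in IN (adjusted p = 2e-09), and like Nrgn it was lower in IN at P0 (log2 difference -1.15, adjusted p = 8e-07). The median change of this list was 0.67 in Pyr and 0.80 in IN.

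Of 33 other proteins of the density and the spine, 12 were called higher and 1 lower with age in Pyr, and 8 higher and 0 lower in IN, next to 5.68% and 3.48% of all probe sets in Pyr and 4.19% and 2.85% in IN. By adjusted p alone, 21 rose and 6 fell in Pyr, and 14 rose and 13 fell in IN. Over all probe sets these were 33% and 21.7% in Pyr and 22.3% and 23.1% in IN. Rasgrf1, a Ras exchange factor, rose by 2.51 in Pyr (adjusted p = 5.6e-12) and 1.90 in IN (adjusted p = 1.5e-10), and Lin7b and Frmpd4 were also called higher in both. The difference between the changes called 6 below 0 and 0 above, next to 2.63% and 2.24% of all probe sets. Grasp, a scaffold of metabotropic glutamate receptors, rose by 2.05 in Pyr (adjusted p = 1.3e-10) and by 0.03 in IN (adjusted p = 0.82), and Arc, an activity-induced regulator of AMPA receptors, rose by 2.33 in Pyr (adjusted p = 2.5e-10) and 0.26 in IN (adjusted p = 0.045). In IN P10 against Pyr P12, 6 of the 33 were called lower, next to 2.91% of all probe sets. The largest differences were those of Ptk2b (-3.10), Grasp (-2.38) and Arc (-2.01). The mean level of 11 immediate early genes, which neurons switch on with activity, was 9.94 to 10.14 in Pyr P12, above the 8.89 to 9.51 of the other groups, and their part in the rise of Arc was not tested.

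Among 15 glutamate receptor subunits, auxiliary subunits and adhesion proteins held by the density, 14 rose and 1 fell in Pyr and 10 rose and 2 fell in IN by adjusted p, with 5 and 1 called higher and 0 lower. Of all probe sets, 33% rose and 21.7% fell in Pyr and 22.3% rose and 23.1% fell in IN. The shares called higher and lower were 5.68% and 3.48% in Pyr and 4.19% and 2.85% in IN. Gria2 fell in both populations, by 0.43 in Pyr (adjusted p = 2.8e-05) and 0.23 in IN (adjusted p = 0.0054), and Gria4 fell by 0.19 in IN (adjusted p = 0.033). In IN P0 against Pyr P0, 4 were called higher and 1 lower, against 1.9% and 1.74% of all probe sets. Cacng3, an auxiliary subunit of AMPA receptors, was higher by 3.77 (adjusted p = 2.3e-10), Gria1 by 2.58 (adjusted p = 5.2e-11) and Gria4 by 1.56 (adjusted p = 8.6e-10), whereas Nlgn1, an adhesion protein, was lower (log2 difference -1.46, adjusted p = 1.1e-07). Cacng3 then rose by 4.24 in Pyr (adjusted p = 1.9e-11) and changed by 0.29 in IN (adjusted p = 0.098). At the later stages 1 gene of this list was called higher in IN (Gria1, by 1.32) and 1 lower (Grin2a, -1.23). The shares of all probe sets were 2.65% and 2.91%. The median difference was 0.06, against -0.58 for the 34 members.

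**Figure D4:**
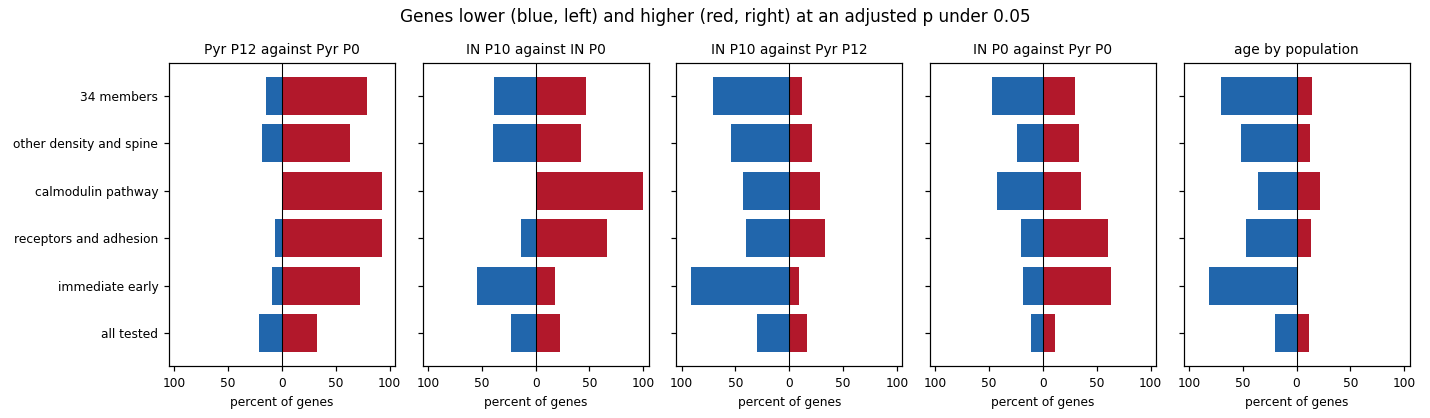
Share of genes (x axis, percent) that were lower (blue, left) or higher (red, right) at an adjusted p under 0.05 in each comparison, for the 34 members, the 4 lists outside them and all probe sets tested. The members rose for 79.4% in Pyr and 47.1% in IN, against 33% and 22.3% of all probe sets, and the calmodulin pathway list rose in both populations.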

How the data were processed

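RNA of sorted cells was hybridised to Affymetrix Mouse Gene ST arrays, 12 arrays in 4 groups of 3. The deposited log2 values had been made by the authors with RMA, which corrects background, normalizes by quantiles and summarises probes on all arrays together; the software version and genome build were not given in the sources used here. Quantile normalization sets all arrays to a common distribution, so a shift shared by most genes could not be seen. The number of arrays limits the precision.

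The platform annotation gave the names of probe sets: 21640 had 1 symbol, 1321 several and 5231 none, and the 22961 with a symbol were tested. The symbols of all 34 members matched RefSeq by gene number. A limma fit (version 3.58.1, R 4.3.3) over all 12 arrays gave the 4 pairs of groups and the difference between the age changes (8 residual degrees of freedom), with Benjamini-Hochberg adjustment over all probe sets tested. Genes were called at an adjusted p under 0.05 with over 2-fold change, the limits of the study's methods. SAM, the test those methods name, was an alternative, written anew and run on all 20 labellings. Groups came from the sample labels. The fitting code was tested on simulated data. Figures were drawn with matplotlib 3.10.9.

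All members are named, and genes outside them come from fixed lists. Most of these were among the 3 of a list with the largest change in a direction among those called. Not all of those 3 are named in each comparison, and others are named beside a member or a result. The falls of Gria2 and Gria4 were named after their values were seen. The members and lists were chosen with earlier results of these data known. Alternatives changed the test, the arrays in the fit, the variance model, a replicate block, the probe sets fitted, the probe set of a member, centring, a second quantile normalization, the thresholds, and left out each array in turn.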

Additional observations from a re-analysis of the deposited data

Results flagged for a closer look

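For 6 members the change with age in IN minus the change with age in Pyr passed the test of that difference (limma, Benjamini-Hochberg adjusted p under 0.05, fold over 2). The values were -2.70 for Dlgap2, -2.15 for Camk2d, -1.26 for Cnksr2, -1.23 for Begain, -1.02 for Shank2 and -1.0 for Baiap2, each from 3 arrays a group. Dlgap2, Cnksr2 and Shank2 rose in Pyr and fell in IN, Camk2d rose in both, and Begain and Baiap2 rose in Pyr and did not pass in IN. Groups of 3 arrays are too small to test a single array as standing apart.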

How the results depend on the processing

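Of 988 recomputed values of called members, 963 kept their call, 25 kept their direction and missed a threshold, and 0 changed sign. The 25 belonged to Ppp3ca in Pyr, Iqsec2 and Shank2 in IN P10 against Pyr P12, Lzts1 in IN P0 against Pyr P0, and Shank2 and Baiap2 in the difference between the age changes, where the value went under the 2-fold limit; for Shank2 the mean with its dimmer probe sets gave -0.30 in both comparisons. Centring gave 0.98 for Ppp3ca, -0.98 for Iqsec2, -0.99 for Shank2 and -0.97 for Baiap2, and a second quantile normalization gave -0.92 for Iqsec2, and -0.96 for Shank2 and -0.99 for Baiap2 in the difference between the changes.

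The fold limit set most counts. With a fold over 1.5, IN P10 against IN P0 had 9 members higher and 5 lower, IN P10 against Pyr P12 had 2 higher and 16 lower, IN P0 against Pyr P0 had 8 lower, and the difference between the age changes had 17 below 0. With no fold limit the counts higher and lower were 16 and 13 for IN with age, 27 and 5 for Pyr with age, 4 and 24 for IN P10 against Pyr P12, 10 and 16 for IN P0 against Pyr P0, and 5 and 24 for the difference between the changes. At an adjusted p under 0.01, the members that passed lower in IN P0 against Pyr P0 became 10 and those above 0 in the difference between the changes became 3. Shares of all probe sets at a fold over 1.5 and at an adjusted p under 0.01 are not given here. The counts at those limits show how the threshold moved them and are not set against a background. Leaving out each array in turn gave 3 and 1 for IN with age, 11 to 12 and 1 for Pyr with age, 1 to 2 higher and 9 to 11 lower in IN P10 against Pyr P12 (2 higher without IN P10 array A or Pyr P12 array C), 3 to 4 higher and 2 to 4 lower in IN P0 against Pyr P0, and 0 above and 4 to 9 below 0 for the difference between the changes. The members that rose in Pyr and fell in IN were 6 to 7 under every alternative run. SAM, which could not be run on the difference between the changes, the groups fitted alone, the variance model, the probe sets fitted, the mean over probe sets, centring and the second quantile normalization moved no member count by over 1.5 times.

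The replicate letters gave no uniform pairing of the arrays: over 18 pairs of same-letter arrays the deviations from the group means correlated at -0.18 to 0.19, 6 of the 18 above 0.1, and 6 of 12 arrays correlated best with their own letter. Pairs of letter A ran from 0.06 to 0.16, those of B from -0.18 to 0.03 and those of C from -0.18 to 0.19. Whether arrays of a letter shared a step was not tested. With the letter as a replicate block, the counts were 3 and 1, 12 and 1, 1 and 10, 3 and 3, and 0 and 6, in the order above.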

Other observations

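The immediate early genes, transcription factors and signalling genes that neurons switch on within minutes of activity, differed between the populations in their course with age. Of 11 genes, 5 were called higher (Fos, Egr1, Egr2, Nr4a1 and Npas4) and 1 lower (Jun) in Pyr P12 against Pyr P0. In IN P10 against IN P0, 0 were called higher by limma and 2 lower (Egr1 and Dusp1). Over all probe sets, 5.68% were called higher and 3.48% lower in Pyr, and 4.19% and 2.85% in IN. By adjusted p alone, 2 of the 11 were higher and 6 lower in IN, next to 22.3% and 23.1% of all probe sets. The difference between the changes called 7 of 11 below 0 and 0 above, against 2.63% and 2.24% of all probe sets. Egr1 rose by 2.46 in Pyr (adjusted p = 1.6e-08) and fell by 1.34 in IN (adjusted p = 8e-06). Npas4 rose by 2.92 in Pyr (adjusted p = 4e-10) and by 0.44 in IN (adjusted p = 0.012). In IN P0 against Pyr P0, Fos (1.36) and Egr1 (1.09) were already called higher. These were 2 of the 11, with 0 called lower, next to 1.9% and 1.74% of all probe sets. Whether these values reflect activity in the cortex was not tested.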
